A study of Homo sapiens with 10 samples.

Results

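The genomic regions bound by the histone demethylase LSD1 were compared with those bound by its corepressor partner RCOR1 in Kelly neuroblastoma cells. Peaks of 4 libraries on chromosomes 1 to 22 and X were merged wherever they overlapped by at least 1 bp. The merge gave 60660 regions, against 137558 for all 10 libraries of the series. A region was called LSD1 only when both LSD1 libraries and neither RCOR1 library had a peak in it, RCOR1 only in the opposite case, and shared when all 4 libraries had one. The classes held 2027, 7249 and 4929 regions, together 14205 of the 60660, and the other 46455 regions had a peak in 1 library of a protein but not in the other and fell into no class.

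The study mapped the corepressors RCOR1, RCOR2 and RCOR3 and LSD1 by chromatin immunoprecipitation and sequencing (ChIP-seq), with 2 libraries for each protein and 2 FLAG libraries from uninduced cells. Kelly is a MYCN-amplified neuroblastoma line in the adrenergic state, the lineage-committed of the states in which neuroblastoma cells are found. RCOR1 was precipitated from non-treated Kelly cells with the antibody EPR13825. LSD1 was precipitated with the antibody ab129195 from Kelly cells that carry a doxycycline-driven shRNA against RUNX1T1, also non-treated, so the shRNA was not induced by design. All 4 libraries carry the time label 48 h and came from chromatin fixed with formaldehyde and sonicated. Protein, antibody and cell derivative change together between the LSD1 and the RCOR1 libraries, and their parts in any difference cannot be told apart. The other libraries used here are RCOR3 from non-treated cells, FLAG-tagged RCOR2 from cells given doxycycline, and FLAG from the same kind of cells without doxycycline. No label says whether the 2 replicates of a group came from separate cultures, so the spread between them may be technical.

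LSD1, encoded by KDM1A, removes methyl groups from lysine 4 of histone H3, a mark of active enhancers and promoters. On nucleosomes it works with a CoREST protein, of which RCOR1 is the founding member, and RCOR1 also brings the histone deacetylases HDAC1 and HDAC2. The complex is recruited by DNA-binding factors such as REST, INSM1 and other proteins with a SNAG domain. In sympathetic and adrenergic cells the regulators HAND2, GATA3 and ISL1 maintain the noradrenergic programme.

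Promoter sequences are shown for the highest-ranked regions of each class that touched a promoter, which is the minority position for shared and LSD1-only regions. For each class, the 2 highest-ranked regions over a promoter of the RefSeq table (GRCh38.p14) were taken, ranked by the lowest percentile of fold over the libraries with a peak. The 250 bases before the gene start are printed 5′ to 3′ on the strand of the gene, with the GC box GGGCGG and the GATA motif GATAAG in capitals, on either strand. The RCOR1-only examples are SMARCE1, a subunit of the SWI/SNF remodelling complex (chr17:40647819-40648068, minus strand), and HARBI1, a gene derived from a transposase that starts beside the autophagy gene ATG13 (chr11:46617228-46617477, minus strand).
SMARCE1: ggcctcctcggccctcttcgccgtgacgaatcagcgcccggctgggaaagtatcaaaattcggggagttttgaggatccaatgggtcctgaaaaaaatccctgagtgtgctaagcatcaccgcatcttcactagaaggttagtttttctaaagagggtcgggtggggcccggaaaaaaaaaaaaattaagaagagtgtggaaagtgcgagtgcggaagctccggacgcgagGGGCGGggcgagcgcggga
HARBI1: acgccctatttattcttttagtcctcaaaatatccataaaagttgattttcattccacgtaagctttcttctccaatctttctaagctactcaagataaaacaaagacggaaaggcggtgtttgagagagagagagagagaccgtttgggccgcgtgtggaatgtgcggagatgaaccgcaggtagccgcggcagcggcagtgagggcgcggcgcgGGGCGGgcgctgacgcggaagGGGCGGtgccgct
The shared examples are TNFRSF19, a receptor of the TNF receptor family (chr13:23570162-23570411, plus strand), and NUCKS1, a chromatin-associated nuclear protein (chr1:205750183-205750432, minus strand).
TNFRSF19: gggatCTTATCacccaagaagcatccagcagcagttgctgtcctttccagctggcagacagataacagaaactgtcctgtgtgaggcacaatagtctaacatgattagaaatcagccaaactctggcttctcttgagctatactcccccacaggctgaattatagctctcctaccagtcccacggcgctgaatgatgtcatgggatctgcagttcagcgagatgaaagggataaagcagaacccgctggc
NUCKS1: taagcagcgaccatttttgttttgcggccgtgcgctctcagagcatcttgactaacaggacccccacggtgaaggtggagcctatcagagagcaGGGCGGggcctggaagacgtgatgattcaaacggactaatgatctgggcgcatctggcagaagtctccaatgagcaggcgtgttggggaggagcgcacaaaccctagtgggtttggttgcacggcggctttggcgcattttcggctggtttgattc
The LSD1-only examples are RNF14, a ubiquitin ligase that binds the androgen receptor (chr5:141966593-141966842, plus strand), and SRPK2, a kinase of splicing factors (chr7:105389392-105389641, minus strand).
RNF14: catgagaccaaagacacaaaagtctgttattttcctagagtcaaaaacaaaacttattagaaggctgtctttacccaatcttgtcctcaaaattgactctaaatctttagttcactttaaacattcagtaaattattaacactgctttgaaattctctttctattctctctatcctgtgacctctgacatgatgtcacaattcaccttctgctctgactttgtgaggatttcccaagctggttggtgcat
SRPK2: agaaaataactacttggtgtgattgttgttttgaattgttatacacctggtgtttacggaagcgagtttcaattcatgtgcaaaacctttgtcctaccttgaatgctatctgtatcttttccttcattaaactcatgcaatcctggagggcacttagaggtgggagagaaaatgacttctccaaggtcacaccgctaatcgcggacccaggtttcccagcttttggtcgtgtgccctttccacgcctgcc
For SMARCE1, HARBI1, TNFRSF19 and NUCKS1 all 250 printed bases lay in the region, whereas for SRPK2 178 and for RNF14 only 23 did. SMARCE1 and HARBI1 held 19 and 22 CpG dinucleotides in these bases, TNFRSF19 and NUCKS1 4 and 15, and RNF14 and SRPK2 0 and 7. Over the SMARCE1 promoter the fold enrichment of RCOR1 was 25.4 and 12.6 in replicates 1 and 2. Over the TNFRSF19 promoter LSD1 reached 15.9 and 25.8 and RCOR1 17.5 and 9.84. Over the SRPK2 promoter LSD1 reached only 3.10 and 3.58. The fold is the enrichment over background at the peak summit that the authors deposited for each peak, and a region takes its highest peak in a library.

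The peak lists differed in length, and RCOR1 replicate 2 stood apart from replicate 1. LSD1 had 19392 and 19667 peaks on the chromosomes used, and RCOR1 had 49250 and 18297. The names of the peaks in RCOR1 replicate 2 carry the replicate number 3, and the labels do not explain this. Of the peaks of RCOR1 replicate 2, 83.2% overlapped replicate 1, while 27.8% of the peaks of replicate 1 overlapped replicate 2. The LSD1 libraries overlapped each other at 67.0% and 66.3% of their peaks. Read depth is unknown, because the lists hold no read counts, and the Wilson 95% intervals given below cover counting error over regions only. Values without RCOR1 replicate 2 are given beside the class counts and the gene list counts that they move most.

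**Figure D1:**
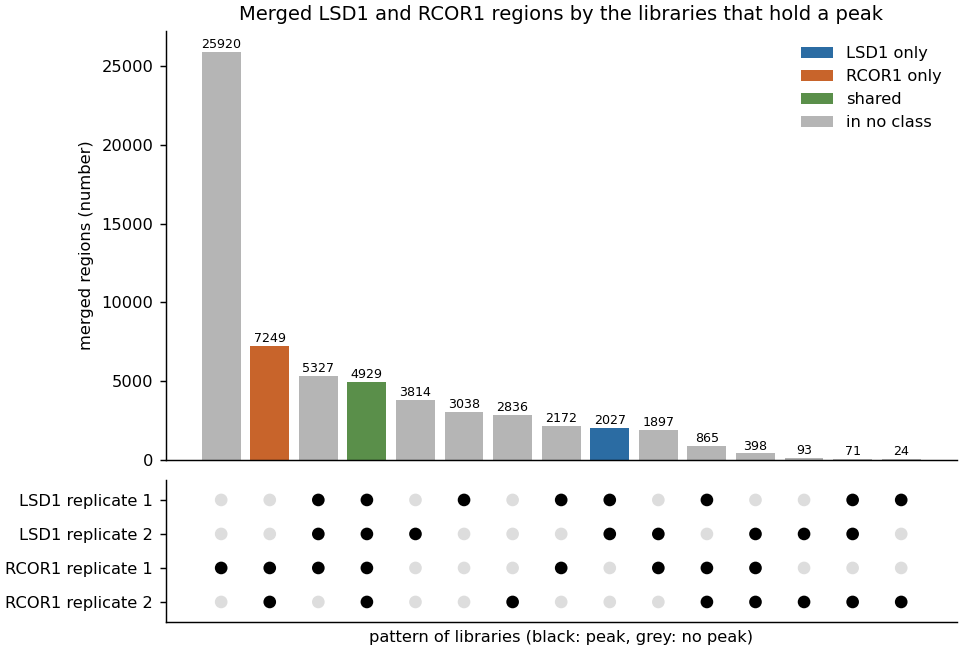
Number of merged LSD1 and RCOR1 regions (vertical axis) for each combination of libraries with a peak (dots, black for a peak); coloured bars are the 3 classes. The tallest bar, 25920 regions, is RCOR1 replicate 1 alone, followed by the RCOR1-only class with 7249 and by 5327 regions with both LSD1 libraries and RCOR1 replicate 1.

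With the lists at full length, most regions bound by LSD1 in both libraries had at least 1 RCOR1 library, whereas most regions bound by RCOR1 in both libraries had no LSD1. By overlap of single peaks, the difference between the directions was not found at equal list length. The shares of regions with at least 1 library of the other protein were not computed at that length. With the 18297 top peaks of each library, 39.7% of LSD1 peaks overlapped RCOR1 and 38.8% of RCOR1 peaks overlapped LSD1, and the classes held 4196 LSD1-only, 4869 RCOR1-only and 4448 shared regions. At full length, of the 12354 regions with both LSD1 libraries, 39.9% had both RCOR1 libraries, 43.7% had 1 and 16.4% had neither. Of the 13441 regions with both RCOR1 libraries, 36.7% had both LSD1 libraries, 9.40% had 1 and 53.9% had neither. Counted by peak, 73.0% and 69.0% of the peaks of LSD1 replicates 1 and 2 overlapped RCOR1 replicate 1, and 31.5% and 29.6% overlapped RCOR1 replicate 2. The mean over these 4 pairs was 50.8% ± 23.4 (SD, n = 4 pairs that share libraries). In the other direction the mean was 30.2% ± 4.12, from 27.6% and 26.0% for RCOR1 replicate 1 to 34.7% and 32.7% for replicate 2. The share of LSD1 peaks with RCOR1 thus differed more between the RCOR1 libraries than between the LSD1 libraries. Without RCOR1 replicate 2 the classes held 2098 LSD1-only, 33308 RCOR1-only and 10257 shared regions. Without RCOR1 replicate 1 they held 7568, 11371 and 4999, so that LSD1-only regions outnumbered shared ones. The LSD1-only class also grew to 5927 without LSD1 replicate 1 and 5139 without LSD1 replicate 2. The shared class therefore followed the shorter RCOR1 list and the LSD1-only class the longer one.

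The 5327 regions with both LSD1 libraries and RCOR1 replicate 1 lie just outside the shared class. Their median fold was 6.07 and 6.78 for LSD1 and 5.70 for RCOR1 replicate 1, against 7.70, 9.21 and 10.2 in the shared class. The 865 regions with both RCOR1 libraries and only LSD1 replicate 1 lie just outside the RCOR1-only class. There the median fold of LSD1 replicate 1 was 3.11, and 59.2% of the regions lay at a gene start.

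RCOR1-only regions lay mostly at gene starts, and regions with LSD1 lay mostly away from them. A region was placed at a gene start when its summit was within 2 kb of the start of a protein-coding gene. For the 4162 genes without a listed start, either end of the gene counted as a start. Of all merged regions 26.1% were, and of the RCOR1-only regions 59.4% (95% interval 58.2 to 60.5%). The share was 7.49% (6.78 to 8.25%) for shared regions and 1.48% (1.04 to 2.10%) for LSD1-only regions, which is 30 of 2027. The median distance from the summit to the nearest start was 0.602 kb for RCOR1 only, 63.8 kb for shared and 83.3 kb for LSD1 only. Without RCOR1 replicate 2 the shares were 39.3%, 5.39% and 1.48% in the order RCOR1 only, shared and LSD1 only, and without RCOR1 replicate 1 they were 54.7%, 6.64% and 3.34%. The shared class reached 15.1% without LSD1 replicate 2, the library with fewer peaks at gene starts.

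Among the regions away from gene starts, the classes lay inside a protein-coding gene at like shares, 44.8% of 1997 LSD1-only, 46.2% of 4560 shared and 47.6% of 2946 RCOR1-only regions, against 48.0% of all such merged regions. Between genes and farther than 100 kb from any start were 28.8%, 24.8% and 13.6% of them in the same order, against 21.4% of all. The regions also differed in length, with a median of 302 bp for LSD1 only, 606 bp for RCOR1 only and 905 bp for shared. By library, 8.24% and 4.22% of the LSD1 peaks and 29.7% and 38.8% of the RCOR1 peaks had their summit at a gene start. The means were 6.23% ± 2.84 for LSD1 and 34.3% ± 6.40 for RCOR1 (SD, n = 2 each), a difference of 28.0 percentage points. The libraries of the proteins did not overlap, and the exact two-sided permutation p was 0.3333, the smallest that 2 against 2 libraries can give.

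**Figure D2:**
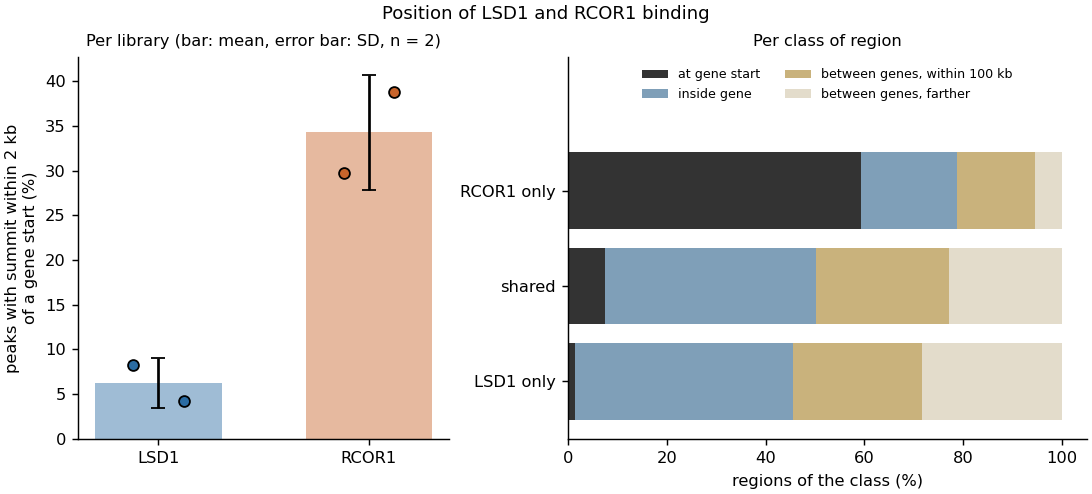
Left, share of peaks with the summit within 2 kb of a gene start for each library (points), with the mean and SD of 2 libraries; right, share of the regions of each class by position. The LSD1 libraries sit at 4.22% and 8.24% and the RCOR1 libraries at 29.7% and 38.8%, and the dark segment falls from 59.4% in RCOR1 only to 1.48% in LSD1 only.

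The promoter sequences under the classes differed in base composition. Of 15812 RefSeq promoters of 300 bp (250 before and 50 after the start), 3342 were overlapped by an RCOR1-only region, 263 by a shared region and 3 by an LSD1-only region. The median number of CpG dinucleotides was 29 in the RCOR1-only promoters, with a GC content of 67.0%, and 22 in the shared promoters, with a GC content of 60.0%. All promoters had a median of 22 CpG and 62.7% GC. The GC box GGGCGG stood in 78.1% of RCOR1-only and 63.1% of shared promoters, against 58.5% of all. The GATA motif GATAAG was found in 7.60% (95% interval 4.98 to 11.5%) of shared and 2.03% (1.61 to 2.57%) of RCOR1-only promoters, against 5.14% of all. The E-box CATCTG followed the same order, with 14.8% of shared, 7.51% of RCOR1-only and 11.7% of all promoters, whereas the E-box CAGCTG was found in 17.9%, 17.6% and 17.7%. The E-box CACGTG, which MYC and MYCN proteins bind, stood in 12.5% of RCOR1-only, 7.98% of shared and 8.87% of all promoters. Both strands were searched, the 3 E-boxes all fit the general form CANNTG, and a match describes letters, not binding. With 3 promoters the LSD1-only class cannot be described in this way.

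LSD1-only peaks were of middling strength in their own libraries. Their median fold was 5.49 in replicate 1 and 5.81 in replicate 2, at the 49.3rd percentile of the peaks of each library. RCOR1-only regions had a median RCOR1 fold of 6.52 and 5.33, at percentiles 72.7 and 51.7. Shared regions had the higher medians for both proteins, 7.70 and 9.21 for LSD1 (percentiles 78.8 and 80.6) and 10.2 and 5.94 for RCOR1 (percentiles 92.7 and 67.7). The greater length of shared regions lets them hold more peaks, and the part of length in these medians was not tested. At gene starts the shared regions kept a high RCOR1 fold (medians 9.32 and 6.30) with a lower LSD1 fold (4.62 and 4.64), whereas away from them the LSD1 medians were 8.09 and 9.67 and the RCOR1 medians 10.4 and 5.89.

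Across the 4929 shared regions the fold of LSD1 rose with that of RCOR1, less closely than within a protein. Spearman's rho was 0.433 and 0.303 between LSD1 replicate 1 and RCOR1 replicates 1 and 2, and 0.515 and 0.350 for LSD1 replicate 2, a mean of 0.401 ± 0.0934 (SD, 4 pairs that share libraries). Within LSD1 it was 0.893 and within RCOR1 0.644. At the 369 shared regions at gene starts the mean between proteins was 0.136, with 0.740 within LSD1 and 0.539 within RCOR1. At the 4560 regions away from gene starts it was 0.422. These are correlations across regions of the same libraries, given as a description. The summits of the proteins lay close together, at a median of 40 to 61 bp over the 4 pairs, against 36 bp within LSD1 and 56 bp within RCOR1. Within 100 bp of each other lay 68.5% to 80.6% of the summits between proteins.

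**Figure D3:**
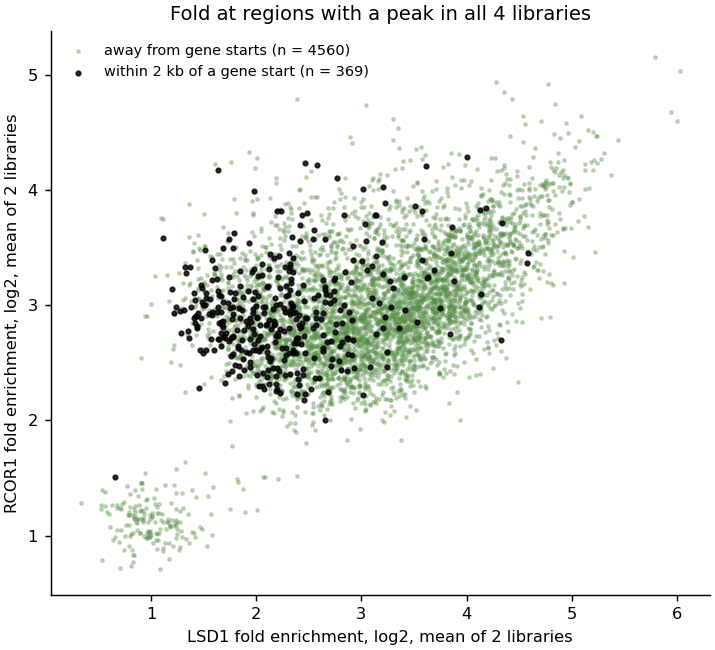
Fold enrichment of LSD1 (horizontal) and RCOR1 (vertical) at the 4929 shared regions, each the mean log2 of 2 libraries; black points are the 369 regions within 2 kb of a gene start. Green points spread along the diagonal (mean rho of single libraries 0.422), black points sit to the left with little slope (0.136), and a small group at low values of both lies apart.

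Many of the shared regions at low values in that plot lay near MYCN. A fold below 4 in all 4 libraries, a limit chosen after the values were seen, was found at 168 shared regions, of which 85 were within 2 Mb of MYCN, the gene amplified in this line, 32 on chromosome 1 and 17 on chromosome 16. In all, 91 shared regions, 21 RCOR1-only and 3 LSD1-only regions lay within 2 Mb of MYCN, and MYCN was the nearest gene of 20 shared regions. The highest-ranked of these spanned chr2:15963036-15994065 with folds of 1.78 and 2.09 for LSD1 and 2.61 and 3.25 for RCOR1. Without the 2 Mb either side of MYCN the mean rho between proteins was 0.368, with the low-fold regions on other chromosomes still included.

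The stronger a region was for RCOR1, the more often LSD1 was present, and RCOR1 followed the fold of LSD1 less evenly. Regions with both RCOR1 libraries were cut into quintiles by RCOR1 fold. LSD1 replicate 1 had a peak in 25.0% of the lowest quintile, 33.3%, 35.8% and 47.1% of the next and 74.4% of the highest. For LSD1 replicate 2 the shares ran from 25.5% to 69.9%. At gene starts the shares stayed lower, from 9.19% to 38.0% for replicate 1 and from 4.00% to 21.9% for replicate 2. Away from gene starts they ran from 34.4% to 85.9% and from 38.2% to 85.1%. Even the strongest RCOR1 regions at gene starts thus held LSD1 in 38.0% and 21.9%, against 34.4% and 38.2% of the weakest regions elsewhere. The median length of the RCOR1 regions also rose over the quintiles, from 471 bp in the lowest to 1057 bp in the highest, and its part in these shares was not tested.

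Regions with both LSD1 libraries were cut by LSD1 fold in the same way. RCOR1 replicate 1 had a peak in 77.9% of the lowest quintile, 70.6%, 77.7% and 90.0% of the next and 98.9% of the highest. RCOR1 replicate 2 had one in 44.8%, 18.7%, 22.3%, 38.4% and 78.1%. Both RCOR1 libraries were lowest in the second quintile and highest in the top quintile. Of the lowest quintile 11.9% lay at a gene start, against 1.54% of the highest, but the dip was also present away from gene starts, with 41.4% in the lowest and 16.9% in the second quintile for RCOR1 replicate 2. At gene starts the share did not rise with LSD1 fold. From the lowest to the highest quintile it was 96.9%, 88.5%, 95.2%, 94.7% and 94.7% for RCOR1 replicate 1 and 69.6%, 56.6%, 50%, 57.9% and 71.1% for replicate 2, over 293, 113, 84, 57 and 38 regions. The median region length went the same way, 554, 422, 472, 619 and 913 bp from the lowest to the highest quintile, and its part in the shares was not tested.

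**Figure D4:**
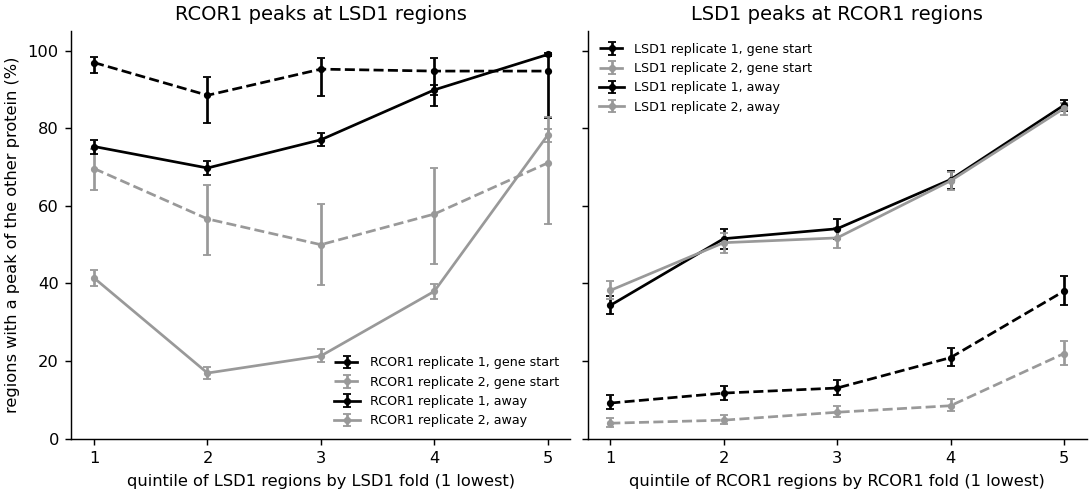
Share of regions with a peak of the other protein (vertical axis, percent) by quintile of fold, for LSD1 regions (left) and RCOR1 regions (right); dashed lines are regions at gene starts, solid lines regions away from them, and error bars are Wilson 95% intervals. On the right the solid lines rise to 85.9% and 85.1% and the dashed lines to 38.0% and 21.9%.

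Of the 3 classes, the shared class had RCOR3, a paralogue of RCOR1, in the highest share of its regions, and the RCOR1-only class had RCOR2 in the highest share. RCOR3 replicates 1 and 2 had a peak in 83.2% and 78.0% of shared regions, in 43.4% and 51.8% of RCOR1-only regions and in 0.543% and 4.64% of LSD1-only regions. Over all merged regions the shares were 19.7% and 22.2%. FLAG-RCOR2 from induced cells had a peak in 89.3% and 88.8% of RCOR1-only, 52.4% and 50.6% of shared and 5.03% and 3.45% of LSD1-only regions, against 41.5% and 40.6% of all. The libraries of each protein kept the same order of the classes. An overlap of 1 bp counted, and the median length was 905 bp for shared, 606 bp for RCOR1-only and 302 bp for LSD1-only regions. The part of length in these shares was not tested.

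FLAG libraries from uninduced cells, in which no tagged RCOR2 is meant to be made, also had peaks in 38.8% and 20.9% of RCOR1-only regions, against 9.12% and 7.12% of all merged regions. They had peaks in 5.52% and 13.4% of shared and 0.197% and 1.63% of LSD1-only regions. RCOR1-only regions without such a peak lay at a gene start in 49.3%. The classes kept their order for RCOR2 and RCOR3 at gene starts and away from them. At gene starts, induced FLAG-RCOR2 replicate 1 had a peak in 97.9% of RCOR1-only and 85.1% of shared regions, against 82.2% of all merged regions there. Away from gene starts it had one in 76.6% and 49.7%, against 27.1% of all. For RCOR3 replicate 1 the shares were 43.6% and 80.5% at gene starts, against 21.6% of all. Away from them they were 43.2% and 83.4%, against 19.1%. Without RCOR1 replicate 2 the mean RCOR3 share was 15.9% of RCOR1-only and 51.4% of shared regions, and the mean induced RCOR2 share 53.8% and 32.4%. Without RCOR1 replicate 1 the mean shares of LSD1-only regions rose to 18.2% for RCOR3 and 11.9% for induced RCOR2.

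**Figure D5:**
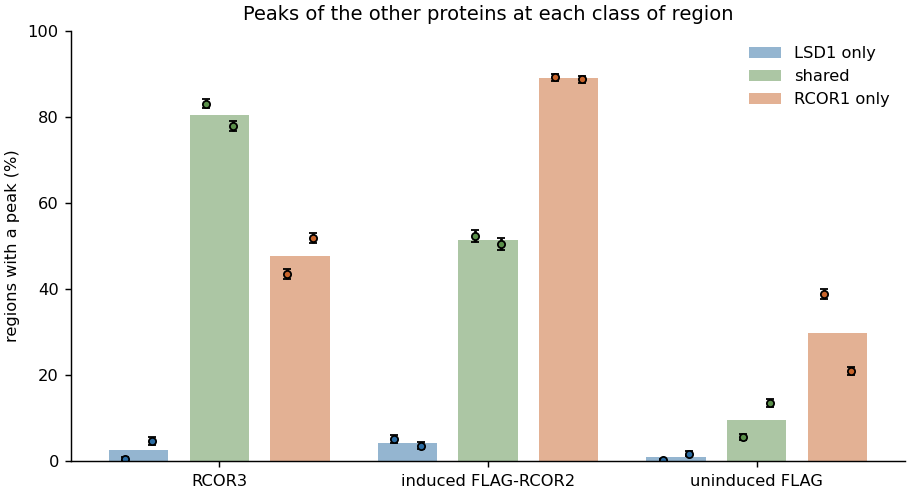
Share of the regions of each class (vertical axis, percent) with a peak of RCOR3, induced FLAG-RCOR2 or uninduced FLAG; points are the 2 libraries with Wilson 95% intervals and bars their mean. RCOR3 is highest in shared regions (83.2% and 78.0%), induced RCOR2 in RCOR1-only regions (89.3% and 88.8%), and LSD1-only regions stay at 5.03% or less throughout.

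With all 4 libraries in use, few LSD1-only regions had a peak of RCOR2 or RCOR3, also among those with a strong LSD1 peak. Among LSD1-only regions of the fourth quintile of LSD1 fold (244 regions), 0.410% and 3.28% had RCOR3 and 6.97% and 3.69% had induced RCOR2. Shared regions of the same quintile (947) had RCOR3 in 78.2% and 70.3% and induced RCOR2 in 36.4% and 37.9%. LSD1 regions with 1 RCOR1 library lay between, with 38.9% and 23.5% for RCOR3 and 13.1% and 13.9% for induced RCOR2 in that quintile (1280 regions). Only 22 LSD1-only regions reached the top quintile. The part of region length in these differences was not tested either.

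Each region was assigned to the protein-coding gene with the nearest start within 100 kb of its midpoint, which is a matter of position and does not show that the gene is controlled from there. For the 4162 genes without a listed start both ends counted as starts, so a distance for such a gene can be to its other end. RCOR1-only regions reached 5343 genes (26.7% of 19974), shared regions 2140 (10.7%) and LSD1-only regions 895 (4.48%). Without RCOR1 replicate 2 these were 11722 (58.7%), 3464 (17.3%) and 907 (4.54%), and without RCOR1 replicate 1 they were 6703 (33.6%), 2095 (10.5%) and 2701 (13.5%). LSD1-only regions reached 2176 genes (10.9%) without LSD1 replicate 1 and 2219 (11.1%) without LSD1 replicate 2. The list counts below moved with these totals, and LSD1-only counts of a few genes are the least settled. A gene could belong to several classes, and 851 genes had both an RCOR1-only and a shared region, which is 15.9% of the RCOR1-only and 39.8% of the shared genes. At 500 of these 851 genes (58.8%) an RCOR1-only region lay within 2 kb of the start and all shared regions lay farther away, and the reverse was found at 43 (5.05%). Over all genes 64.1% of the assigned RCOR1-only regions and 11.9% of the shared ones lay at a start. Whether the 2 classes are arranged at the same gene beyond these general positions was not tested. Of the LSD1-only genes, 41.8% also had a shared and 37.5% an RCOR1-only region.

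The strongest shared regions lay far from gene starts. The region that ranked first was chr12:19969609-19970819, 529.6 kb from AEBP2, which encodes a cofactor of Polycomb repressive complex 2. LSD1 fold there was 43.2 and 71.5 and RCOR1 fold 47.3 and 26.8. The next, chr1:48654101-48655678, lay inside a gene 122 kb from the start of BEND5 with folds of 54.9 and 77.2 for LSD1 and 45.5 and 23.6 for RCOR1. LIX1 had the highest LSD1 fold of the 10 in replicate 2, with 52.2 and 78.5 for LSD1 and 39.8 and 14.8 for RCOR1 at chr5:97124868-97126106. The other 7 of the first 10 were nearest to FGD6, CHN2, CORO6, the cadherin gene CDH11, the sodium-calcium exchanger SLC8A1, DTNBP1 and the muscarinic receptor gene CHRM4. All 10 regions had a peak in both RCOR3 libraries, 7 and 8 had one in the induced RCOR2 libraries, and none lay within 2 kb of a gene start.

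Among the strongest RCOR1-only regions, 6 of 10 had their midpoint within 2 kb of a gene start. SMARCE1 had RCOR1 folds of 25.4 and 12.6 at chr17:40647243-40648880, 0.244 kb from its start. ATG13, an initiator of autophagy, had 19.5 and 11.6 at chr11:46617053-46617989. BRPF1, a scaffold of histone acetyltransferase complexes, had 20.5 and 11.0 at chr3:9731211-9731805. GARS1, which charges tRNA with glycine, had 16.5 and 10.98, and GSE1, a protein found with CoREST complexes, 15.4 and 10.5. Further from a start were regions at RXRA, a nuclear receptor (7.26 kb), NTNG2, a netrin (20.8 kb), ANXA2R (23.7 kb) and PI4K2A (2.51 kb). The regions of GSE1 and of LOC102723655, the latter near the end of chromosome 16, also held peaks in all 6 other libraries, the uninduced FLAG libraries included. Of the 10 regions, 4 and 2 had a peak in uninduced FLAG replicates 1 and 2.

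Among the 10 strongest LSD1-only regions, that of RHEX alone lay at a start (0.370 kb), with folds of 11.2 and 15.1. TNFRSF19 had an LSD1-only region at chr13:23572930-23573238 with folds of 10.7 and 12.9, 2.67 kb from its start, beside the shared region over its promoter. A further 7 were nearest to NOL7, ST7, HMGXB4, WSCD2, the vesicle protein gene STXBP5L, the corepressor gene IRF2BP2 and the lysine methyltransferase gene SMYD2. None of the 10 had an RCOR3 peak, and 1 had a peak in an induced RCOR2 library.

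Shared regions were not equally strong for both proteins. At the 5 with the greatest excess of LSD1, the mean LSD1 percentile was 62.3 to 74.9 points above that of RCOR1. They included regions nearest to RUVBL1, ZNF385D, FASLG and JRKL, and at ZNF385D LSD1 fold was 13.7 and 17.1 and RCOR1 fold 5.08 and 3.16. At the 5 with the greatest excess of RCOR1 the difference was −92.5 to −95.8 points. These were nearest to LOC124901819, CAPZA3, FAM163B, BSG and CCDC200. At BSG, which encodes the membrane glycoprotein basigin, LSD1 fold was 2.09 and 2.24 and RCOR1 fold 17.4 and 8.24. All 5 with excess RCOR1 had peaks in both RCOR3 and both induced RCOR2 libraries and in at least 1 uninduced FLAG library, while 1 of the 5 with excess LSD1 had an RCOR3 peak and 1 an induced RCOR2 peak.

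Of 28 adrenergic regulators, the transcription factors and cofactors that hold the adrenergic state, 22 (78.6%) were nearest to an RCOR1-only region, 18 (64.3%) to a shared region and 5 (17.9%) to an LSD1-only region. The corresponding shares of all genes are 26.7%, 10.7% and 4.48%. The 62 shared regions of this list lay at a median of 52.1 kb from the start and 1 of them within 2 kb, whereas the 46 RCOR1-only regions lay at a median of 5.20 kb and 13 of them within 2 kb. Over all genes the medians were 28.0 kb and 0.44 kb, with 11.9% of shared and 64.1% of RCOR1-only regions at the start. Of the 62 shared regions, 20 were nearest to the amplified gene MYCN, and the highest-ranked of these had LSD1 folds of only 1.78 and 2.09. Without RCOR1 replicate 2 the counts of adrenergic regulators were 28 for RCOR1 only, 21 for shared and 5 for LSD1 only. Of all genes 58.7%, 17.3% and 4.54% were then reached. Without RCOR1 replicate 1 the counts were 23, 18 and 15, against 33.6%, 10.5% and 13.5% of all genes. The LSD1-only count of this list was 11 without LSD1 replicate 1 and 14 without LSD1 replicate 2, against 10.9% and 11.1% of all genes.

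TBX2, a T-box repressor, had 3 shared regions, of which chr17:61380040-61382097 reached 15.6 and 24.0 for LSD1 and 39.6 and 23.6 for RCOR1. GATA3, a zinc finger factor of noradrenergic neurons, had a shared region 71.5 kb from its start with 14.5 and 20.9 for LSD1 and 13.2 and 10.0 for RCOR1. PBX3, EYA1, KLF7 and PHOX2A also had shared regions above the 90th percentile in all 4 libraries. Those of PBX3, KLF7 and PHOX2A lay 64.8 kb or more from the start. That of EYA1, a gene without a listed start, lay 32.4 kb from the nearer end of the gene.

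ISL1, a LIM-homeodomain factor, had an RCOR1-only region and no shared one. It lay 0.239 kb from the start at chr5:51383198-51384175, with RCOR1 folds of 9.39 and 8.93. PHOX2A paired an RCOR1-only region 0.313 kb from its start (12.8 and 7.27) with shared regions farther out, of which the strongest, 64.8 kb away, had LSD1 folds of 12.8 and 16.2. HAND1 had RCOR1-only folds of 6.04 and 6.30 at 0.306 kb, beside 6 shared and 2 LSD1-only regions. HAND2, which drives noradrenergic differentiation, was stronger for RCOR1 than for LSD1. Its RCOR1-only region 8.20 kb away reached 10.4 and 9.45, and the shared region 10.7 kb away had 3.52 and 3.76 for LSD1 against 13.4 and 8.93 for RCOR1. The stronger LSD1-only region of HAND1 reached 6.44 and 6.95, 12.3 kb from its start.

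Of 16 genes of noradrenaline synthesis, storage and transport, 10 (62.5%) had a shared, 5 (31.3%) an RCOR1-only and 2 (12.5%) an LSD1-only region. Of all genes 10.7%, 26.7% and 4.48% had one. The list counts became 10, 13 and 2 without RCOR1 replicate 2, when 17.3%, 58.7% and 4.54% of all genes were reached. The LSD1-only count was 5 or 6 with any other single library left out, against 10.9% to 13.5% of all genes. GCH1, which makes the cofactor of tyrosine hydroxylase, had an RCOR1-only region 0.323 kb from its start (5.70 and 5.25). A shared region lay 23.2 kb beyond the other end of the gene, with LSD1 folds of 17.5 and 19.6 and RCOR1 folds of 19.7 and 13.0. DBH, the enzyme that makes noradrenaline from dopamine, had 3 shared regions, the strongest 8.69 kb away with 10.1 and 13.0 for LSD1 and 29.9 and 14.1 for RCOR1. SLC6A2, the noradrenaline transporter, had 2 shared regions, the strongest 3.47 kb away with 13.3 and 14.9 for LSD1 and 24.8 and 10.5 for RCOR1, and 4 LSD1-only regions. DDC, which makes dopamine, had an LSD1-only region 45.8 kb away with folds of 7.98 and 6.46.

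Of 16 genes of the LSD1-CoREST complex itself 10 (62.5%) had an RCOR1-only, 4 (25.0%) a shared and 2 (12.5%) an LSD1-only region. Of all genes 26.7%, 10.7% and 4.48% had one. The list counts became 15, 7 and 2 without RCOR1 replicate 2, when 58.7%, 17.3% and 4.54% of all genes were reached. Without RCOR1 replicate 1 they were 10, 4 and 5, against 33.6%, 10.5% and 13.5% of all genes. Of the 22 RCOR1-only regions of this list 11 lay within 2 kb of the start, against 64.1% over all genes. KDM1A, the gene of LSD1, had RCOR1 folds of 8.72 and 7.35 at chr1:23019092-23019557, 0.143 kb from its start. RCOR3 had 12.9 and 6.20 at 0.062 kb, HDAC1 8.88 and 5.62 at 0.006 kb, and PHF21A, a reader of unmethylated histone H3, 7.04 and 6.30 at 0.492 kb. Shared regions of this list lay 28.2 kb or more from a start, among them those at ZNF217, HDAC2 and GSE1. At GSE1 the shared region had LSD1 folds of 3.73 and 4.10 and RCOR1 folds of 16.1 and 12.1. RUNX1T1, the gene targeted by the shRNA in the LSD1 cells, had 1 shared region inside the gene, 40.7 kb from its start, with LSD1 folds of 8.67 and 4.94 and RCOR1 folds of 10.1 and 4.73.

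For lists of cellular processes and stress responses the RCOR1-only shares were at or above that of all genes (26.7%), and the shared ones lay on both sides of the 10.7% of all genes. Of 30 splicing factors 17 (56.7%) had an RCOR1-only region, 2 a shared and none an LSD1-only region, with HNRNPH1 (9.73 and 7.88) and SRSF4 (8.05 and 7.35) the strongest, both within 0.203 kb of the start. The splicing counts became 28, 4 and 0 without RCOR1 replicate 2. Of 20 p53 targets 15 (75.0%) had an RCOR1-only and 4 (20.0%) a shared region. GADD45A, a growth arrest gene, had an RCOR1-only region 0.165 kb from its start (7.04 and 6.30) and 4 shared regions, the strongest 38.6 kb away with 22.7 and 21.6 for LSD1 and 13.6 and 8.24 for RCOR1. Of 16 immediate early genes 10 (62.5%) had an RCOR1-only region and 2 a shared one. The p53 list had 17 and 7 and the immediate early list 14 and 7 without that library. For cell cycle genes the counts were 11 and 1 of 30, for ribosomal proteins of the cytosol 17 and 5 of 50, for oxidative phosphorylation 9 and 2 of 30 and for MYC targets 10 and 3 of 30. The shares of the last 4 lists for RCOR1 only ran from 30.0% to 36.7%, against 26.7% of all genes. Leaving out RCOR1 replicate 2 gave cell cycle counts of 25 and 2, ribosomal counts of 39 and 12, 18 and 2 for oxidative phosphorylation and 22 and 5 for MYC targets, when 58.7% and 17.3% of all genes were reached.

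Neuronal and signalling lists had the following counts, beside 26.7% (RCOR1 only), 10.7% (shared) and 4.48% (LSD1 only) of all genes. Of 25 genes known as targets of the neuronal repressor REST, 13 (52.0%) had an RCOR1-only region, 4 (16.0%) a shared and 1 an LSD1-only region, and CHGA, encoding chromogranin A, had the strongest shared one, 37.8 kb away, with 11.4 and 16.3 for LSD1 and 11.1 and 8.93 for RCOR1. Of 33 axon guidance and Eph genes, 15 (45.5%) had an RCOR1-only, 11 (33.3%) a shared and 5 (15.2%) an LSD1-only region. ROBO2, a receptor for Slit proteins, had shared folds of 15.9 and 18.7 for LSD1 and 15.1 and 8.93 for RCOR1, 5.47 kb from its start. PLXNA2, a semaphorin receptor, had 4 LSD1-only regions. Of 11 genes of SNAG-domain factors, which recruit LSD1, 4 had an RCOR1-only, 2 a shared and 2 an LSD1-only region, and INSM2 had all of these, with shared folds of 19.7 and 26.4 for LSD1 and 19.5 and 9.45 for RCOR1 at 39.6 kb. The RCOR1-only and shared counts without RCOR1 replicate 2 were 21 and 6 for REST targets, 29 and 19 for axon guidance and Eph genes and 6 and 2 for SNAG-domain factors. Without RCOR1 replicate 1 the LSD1-only counts of these lists were 4, 17 and 3. Of 19 receptor tyrosine kinases and their ligands, 7 had an RCOR1-only, 6 a shared and 1, ALK, an LSD1-only region. That list had 14 and 11 of the former without RCOR1 replicate 2 and 9 LSD1-only genes without RCOR1 replicate 1. Of all genes, 58.7% had an RCOR1-only and 17.3% a shared region without RCOR1 replicate 2. Without RCOR1 replicate 1, 13.5% of all genes had an LSD1-only region.

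Lists of other states and tissues were set beside all genes, of which 26.7% had an RCOR1-only, 10.7% a shared and 4.48% an LSD1-only region. Of 28 mesenchymal-state genes 11 (39.3%) had an RCOR1-only region, 1 (3.57%, FOSL2) a shared and 1 (TWIST1) an LSD1-only region. The counts became 22, 6 and 1 without RCOR1 replicate 2, when 58.7%, 17.3% and 4.54% of all genes were reached. Without RCOR1 replicate 1 they were 15, 1 and 5, against 33.6%, 10.5% and 13.5% of all genes. Of 10 Schwann and glial genes 1 (10.0%) had an RCOR1-only and 2 (20.0%) a shared region, with 6 and 4 without RCOR1 replicate 2. Of 25 liver genes 2, 1 and 1 had an RCOR1-only, shared and LSD1-only region, and of 23 keratinocyte genes 0, 1 and 0, and without RCOR1 replicate 2 the RCOR1-only count was 5 in each. Peak lists hold no expression values, so the cell type could be set only beside the genes with regions. Of 10 adrenergic markers 9 had an RCOR1-only, 8 a shared and 1 an LSD1-only region. For 10 mesenchymal markers the counts were 3, 1 and 1, and for 6 Schwann and glial markers 0, 1 and 0.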

How the data were processed

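Peak lists of 10 ChIP-seq libraries were used, 4 of them (LSD1 and RCOR1) for the classes. The authors aligned reads to GRCh38 with BWA 0.7.17 and called peaks with MACS2 (deepTools is also named), per the submitters' processing notes. Peaks were called per library. The sources used here do not name the control or threshold. The deposited fold is a ratio of enrichment at the summit, and the deposited score is −log10 of the q-value, both from the authors' peak caller. The summit offset (unit: other) was also taken from the deposited lists. Depth per library is unknown.

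Everything else was computed with Python 3.11.15, numpy 2.4.6, pandas 2.3.3 and scipy 1.17.1 and tested on simulated peaks. Peaks on chromosomes 1 to 22 and X were merged at an overlap of 1 bp. Gene starts came from the RefSeq promoter table of GRCh38.p14 for 15812 of 19974 protein-coding genes, and for the other 4162 both gene ends were used. The motifs were searched in those promoters only, because no genome sequence was used here. Intervals are Wilson 95%. The libraries were compared by an exact permutation test. Of 448 gene symbols in 19 lists 445 were found. Named were the 10 regions of highest rank in each class, the 5 largest rank differences in each direction, all adrenergic and LSD1-CoREST list members with a region, and up to 4 members of each other list, though some genes so taken are not reported here. The classes, lists and comparisons were chosen with earlier results of these data known. The 2 further lists of positions from the series were not used here.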

Additional observations from a re-analysis of the deposited data

How the results depend on the processing

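The order of the classes by gene-start share (RCOR1 only, then shared, then LSD1 only) held under all alternatives tried, but the number of regions in each class did not. With peaks above each library's median score the classes held 1009 LSD1-only, 3385 RCOR1-only and 2570 shared regions, and with the 18297 top peaks of each library 4196, 4869 and 4448. Leaving out single libraries gave 2098 to 7568 LSD1-only, 7660 to 33308 RCOR1-only and 4999 to 10257 shared regions. By the construction of the classes, a longer or shorter list of 1 library moves these counts directly. Other sources of the changes were not tested.

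No alternative changed the sign of the gene-start difference or of the fold correlation. The order of overlap shares and of class counts did change with single libraries left out. Without RCOR1 replicate 1, 30.5% of LSD1 peaks overlapped RCOR1 and 33.7% of RCOR1 peaks overlapped LSD1. With all libraries these were 50.8% and 30.2%. LSD1-only regions outnumbered shared ones without RCOR1 replicate 1 (7568 and 4999) and without LSD1 replicate 1 (5927 and 5330). The gene-start share of peaks differed by 28.0 points with exact p = 0.3333 (smallest possible). With the replicate block, which pairs libraries by number, the difference was 28.0 points and the exact paired p = 0.5, the smallest for 2 pairs. The numbers do not show that libraries were made together, and peak names give RCOR1 replicate 2 another number. Without single libraries the difference was 23.5 to 32.6 points. LSD1 peaks overlapped RCOR1 at 30.5% to 71.0% and RCOR1 peaks LSD1 at 26.8% to 33.7% without single libraries. With equal numbers of top peaks they were 39.7% and 38.8%, so that the difference between the directions was not found at equal list length, and with 50% reciprocal overlap they were 29.7% and 16.05%.

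The gene-start share by class, in the order LSD1 only, RCOR1 only and shared, was 0.345%, 48.2% and 4.52% with a window of 500 bp, 8.93%, 71.0% and 16.0% with 10 kb, and 2.17%, 60.6% and 8.62% with both gene ends. It was 2.78% (LSD1 only) and 5.41% (shared) with peaks above the median score, 2.14% (LSD1 only) and 62.2% (RCOR1 only) with equal top peaks, and 49.3% (RCOR1 only) and 5.05% (shared) without uninduced FLAG peaks. Without single libraries the ranges were 1.48% to 3.34%, 39.3% to 59.3% and 5.39% to 15.1%.

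The mean RCOR3 share of LSD1 only was 5.73% with peaks set to 500 bp and 6.39% with equal top peaks (1.54% to 18.2% without single libraries). RCOR3 in RCOR1 only was 38.0% above the median score and 58.1% with equal top peaks (15.9% to 48.8%), and in shared regions 84.5% with equal top peaks (51.4% to 79.5%). For induced RCOR2, with peaks of 500 bp, above the median score and equal top peaks, the shares were 7.87%, 2.48% and 7.65% of LSD1 only (3.73% to 11.9%), 84.0%, 85.1% and 92.5% of RCOR1 only (53.8% to 88.2%) and 49.7%, 34.0% and 52.8% of shared regions (32.4% to 56.0%). Uninduced FLAG ranged over 0.564% to 1.81%, 10.2% to 29.2% and 4.89% to 11.5% without single libraries. The mean rho between proteins was 0.494 as Pearson's r of log2 fold, 0.499 with −log10 q and 0.358 to 0.454 without single libraries.

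Of the named genes, 12 of 38 kept an LSD1-only, 76 of 118 an RCOR1-only and 61 of 89 a shared region under all 8 alternatives that rebuilt the classes. Depth is unknown, so an absent peak does not show absent binding. Of the libraries left out singly, RCOR1 replicate 1 moved the number of LSD1-only regions the most.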

Other observations

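Regions at small RNA genes fell into different classes. Of 17 genes of the 5S ribosomal RNA array on chromosome 1, 15 had an RCOR1-only region within 500 bp and none a shared one. Those regions account for most of the 25 RCOR1-only regions whose nearest protein-coding gene was RHOU, the highest number for any gene in that class. Of 21 U1 small nuclear RNA genes on chromosome 1, 11 had a shared region and 1 an RCOR1-only region. Of 443 tRNA genes, 72 (16.3%) had a shared, 45 (10.2%) an RCOR1-only and 1 an LSD1-only region within 500 bp, and 217 (49.0%) had a merged region of any kind. By region, 0.852% of shared, 0.483% of RCOR1-only and 0.0493% of LSD1-only regions lay at a tRNA gene, against 0.323% of all merged regions. For the 5S and U1 genes no share over all merged regions was computed. The 42 shared regions at tRNA genes had median folds of 5.08 and 4.60 for LSD1 and 8.06 and 5.93 for RCOR1. The 5S and U1 genes are near-identical copies and tRNA genes come in families, so reads can fall on the wrong copy and the regions are uncertain.

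LSD1-only regions were unevenly spread over the chromosomes. Of the regions with both LSD1 libraries, 30.2% (95% interval 25.3 to 35.6%) on chromosome 22 and 24.4% (21.5 to 27.5%) on chromosome 7 lacked RCOR1, against 5.63% (2.21 to 13.6%) on chromosome 21 and 16.4% overall. Between 25 and 28 Mb on chromosome 22 these were 47 of 107, and between 41 and 43 Mb on chromosome 10 39 of 60, the windows of 3 and 2 Mb with the most such regions on those chromosomes, which were chosen after the values were seen. How well reads map in these windows was not tested, so the regions there are uncertain too. CMKLR1, a chemerin receptor gene, was the nearest gene of 9 LSD1-only and 6 shared regions, and SEZ6L, a neuronal membrane protein gene inside the chromosome 22 window, of 7 LSD1-only regions.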
